A study of Mus musculus with 4 samples.

Results

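The DNA replication machinery was represented by 45 genes, chosen by symbol for their place in origin licensing, origin firing, DNA synthesis, nucleotide supply or chromatin assembly behind the fork. The table of read counts held 23756 genes and all 45 were in it. The cells were 32Dcl3, a mouse hematopoietic line that depends on interleukin-3 (IL-3), in which Abl1, the gene of a non-receptor tyrosine kinase, had been targeted with CRISPR/Cas9. RNA-seq was available for 2 groups, both carrying the Abl1 knockout: Abl1ko/IL3+ cells cultured with IL-3 and Abl1ko/IL3- cells that had been brought to grow without it by gradual withdrawal, with 2 libraries in each. The comparison addressed how knockout cells that no longer needed the cytokine differed from knockout cells that still received it. The knockout lines came from more than 1 guide RNA and clone, and the sources do not tie a clone to a library. Both groups were knockouts, so the comparison held no cells with intact Abl1.

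A replication origin is first bound by the origin recognition complex, which with CDC6 and CDT1 loads the ring-shaped MCM2-7 helicase in an inactive form. In S phase the DBF4-dependent kinase CDC7 and cyclin-dependent kinases convert it to the active CDC45-MCM-GINS helicase, and primase, the polymerases, the sliding clamp and its loader then copy both strands. Most genes of this machinery are transcribed at the G1/S boundary under E2F factors held back by RB-family proteins, so their RNA is commonly read with cell cycle activity. In bulk RNA, fewer cells of a kind and less RNA per cell cannot be told apart.

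Because these genes share a regulatory class, their promoters were searched for the E2F letters TTTCCCGC, TTTCGCGC, TTTGCCGC and TTTGGCGC on both strands, in the 250 bases upstream of the RefSeq start sites (GRCm38.p6). Of 45 windows, which covered 38 of the genes, 8 held such a match (17.8%), against 611 of 32851 windows of that length for all genes (1.86%). The 8 genes were Cdc6, Gins3, Mcm5, Mcm6, Mcm7, Orc1, Pola1 and Rfc3. The letters CCAAT, the core of the NF-Y element, were in 24 of the 45 windows (53.3%) and in 33.8% of all windows. The cell cycle homology region, TTTGAA or TTCGAA, was in 17.8% and 17.1%. There was no window for Rfc2, Gins1, Prim2, Gins2, Gins4, Pole and Mcm4. Some of the windows with an E2F match are shown because no annotated exon lies in them, each 5′ to 3′ on the strand of the gene from 170 to 11 bases upstream of the start site, with the E2F letters in capitals. They are Mcm5 at chr8:75109339-75109498 on the plus strand, Mcm6 at chr1:128359716-128359875 on the minus strand and Pola1 at chrX:93632166-93632325 on the minus strand.
Mcm5: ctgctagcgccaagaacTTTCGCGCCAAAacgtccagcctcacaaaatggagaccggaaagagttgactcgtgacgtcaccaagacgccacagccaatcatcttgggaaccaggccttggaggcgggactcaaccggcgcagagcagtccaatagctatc
Mcm6: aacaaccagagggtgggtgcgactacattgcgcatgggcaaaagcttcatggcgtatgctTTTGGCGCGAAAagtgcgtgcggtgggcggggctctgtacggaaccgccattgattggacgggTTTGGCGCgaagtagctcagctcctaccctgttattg
Pola1: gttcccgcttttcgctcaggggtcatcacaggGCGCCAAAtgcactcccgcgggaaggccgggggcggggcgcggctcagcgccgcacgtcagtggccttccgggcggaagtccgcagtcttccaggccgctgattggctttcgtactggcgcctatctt
In the Mcm5 window, matches on both strands overlapped, starting 153 and 149 bases upstream. Mcm6 held an overlapping pair at 110 and 106 bases and a further match at 47 bases, and Pola1 held a single match at 138 bases. A match of letters is a description and was not a measure of binding.

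The libraries held 48953174 to 60382588 counts, and 3 counts corresponded to 0.0497 to 0.0613 CPM (counts scaled to a common library size). Levels below are CPM after TMM normalization, and log2 fold changes are IL3- against IL3+. Abl1 was counted 1322 and 2222 times in the IL3+ libraries and 1544 and 2256 times in the IL3- libraries. The labels call the cells pre-B cells. In these libraries Rag1, of the recombinase that rearranges antigen receptor genes, had 4 counts in IL3+ replicate 1 and 0 in the others, and the 6 pre-B markers in the table summed to 19.0 to 26.0 CPM. Mpo, the myeloperoxidase of granulocyte precursors, stood at 499.3 to 1879 CPM. The lists were mixed: the pre-B marker Cd79b had 607 to 1044 counts, and the myeloid progenitor marker Cd34 had 14 to 30. The pre-B markers Pax5, Ebf1, Rag2 and Blnk were not among the genes counted. Rag1 and Mpo did not bear out the labelled cell type, but each list also held markers that went the other way. The identity of the cells was not tested.

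None of the 45 genes passed the adjusted threshold of 0.05 in edgeR's quasi-likelihood test, in which 0 of 16535 genes tested were called (0%). None reached an unadjusted p under 0.05 either, where 5.91% of all genes did, 2.56% higher and 3.36% lower in IL3- cells. In the same test without the filter on low counts, Cdt1 alone of the 45 was under it, at 0.0412. There 1165 of 23756 genes had an unadjusted p under 0.05. With the replicate number added as a block, again none of the 45 had an unadjusted p under 0.05, against 3.31% of all genes. With the numbers crossed, a pairing added after seeing the data, Cdt1 alone of the 45 and 6.87% of all genes had one. By DESeq2, 0 of the 45 and 1.64% of all genes were called after adjustment (0.671% higher and 0.968% lower). In its Wald test 1 of the 45, Cdt1, had an unadjusted p under 0.05, as did 1369 of all 16535 genes tested. Adjusted p-values of the 45 ran from 0.854 to 0.999 and standard errors (SE) of the log2 fold changes from 0.31 to 0.91. Over the 45 the log2 fold changes had a median of -0.11, and 17 lay above 0 and 28 below, while the median of all genes tested was -0.03 and 48.1% of them were above 0. No gene of the machinery had both IL3- libraries above both IL3+ libraries, an order found in 19.4% of all genes. Mcm3 and Mcm4, 4.44% of the 45, had both IL3- libraries below both IL3+ libraries, which held for 17.9% of all genes.

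**Figure D1:**
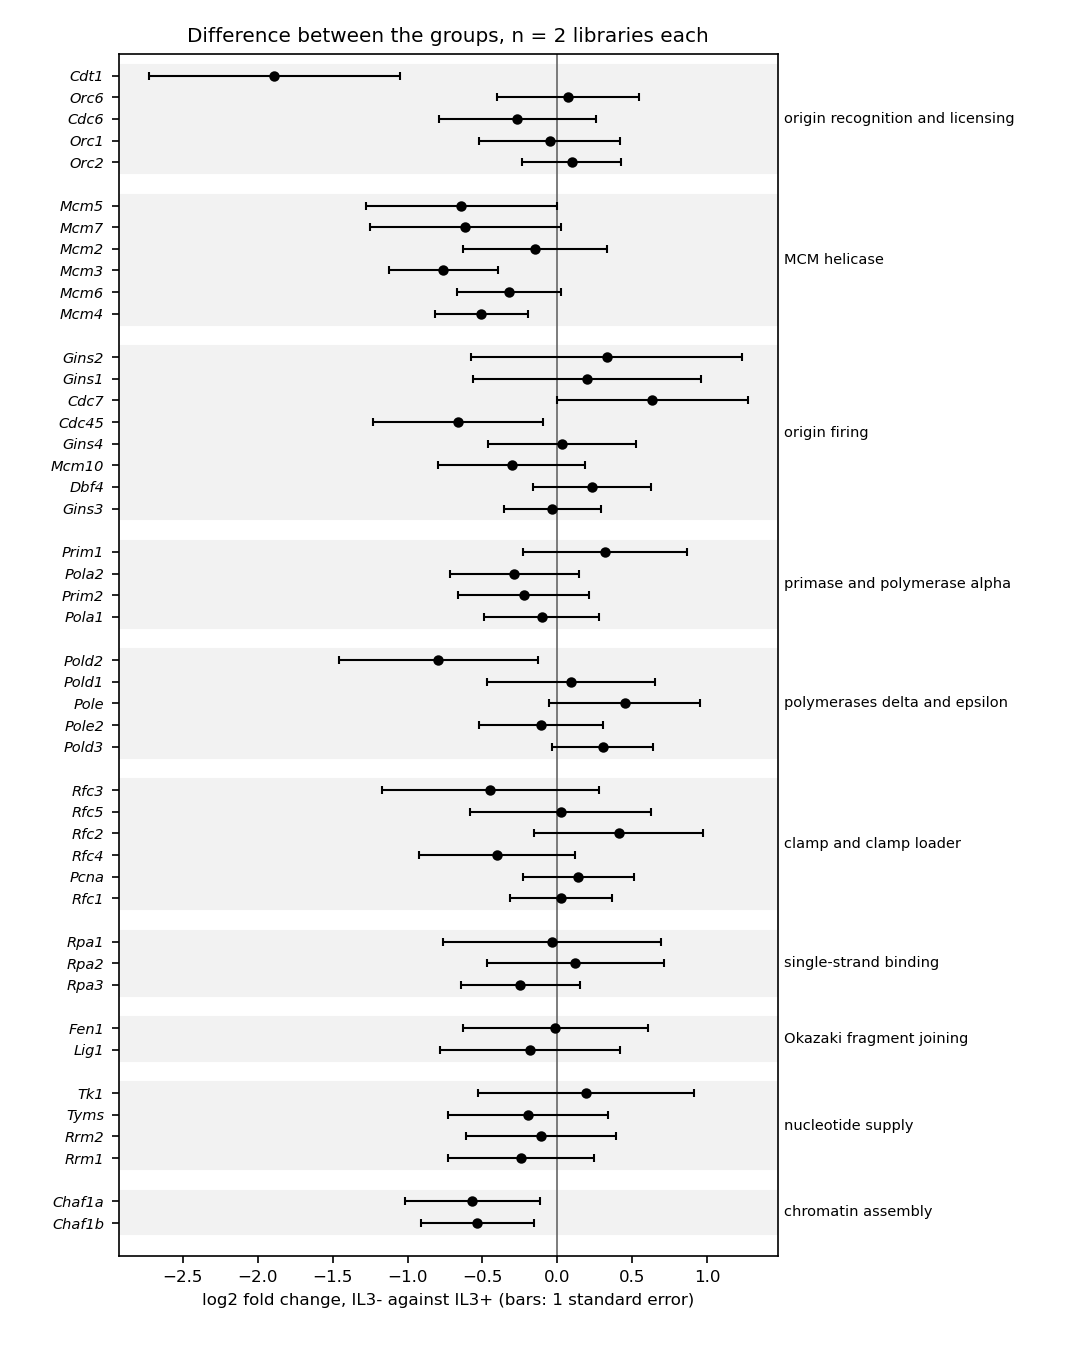
Log2 fold change of each of the 45 replication genes, IL3- against IL3+ (x axis; bars are 1 standard error of the edgeR fit, 2 libraries per group), by role (y axis). The estimates run from -1.89 for Cdt1 to 0.63 for Cdc7, and no adjusted p is under 0.05.

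The larger difference lay between the 2 IL3+ libraries. Replicate 2 was above replicate 1 for 44 of the 45 genes (97.8%), against 48.2% of all genes, with a median log2 ratio of 1.20 against -0.04. For 26 of the 45, replicate 2 was at least 2-fold above replicate 1 (57.8%), against 19% of all genes. In either direction, 40.5% of all genes were at least 2-fold apart between the IL3+ libraries. Over all genes, the median absolute log2 ratio was 0.79 between the IL3+ libraries and 0.37 between the IL3- libraries. The IL3- libraries were closer to each other: 41 of the 45 were higher in replicate 1 (49% of all genes), with a median log2 ratio of replicate 2 over replicate 1 of -0.41 against 0.01, and none differed by 2-fold, as 19.7% of all genes did. IL3+ replicate 2 was the highest of the 4 libraries for 37 genes (28.3% of all genes) and IL3+ replicate 1 the lowest for 36 (31.6% of all genes). Both held at once for 30 genes, against 14.3% of all genes, so both IL3- libraries lay between the IL3+ libraries in 66.7% of the set, an arrangement with either IL3+ library on top that 28% of all genes had. In 31 of the 45 the highest library was at least 2-fold above the lowest (68.9%, against 63.2% of all genes). The same order, IL3+ replicate 2, IL3- replicate 1, IL3- replicate 2, IL3+ replicate 1 from high to low, was found in 27 of the 45 and in 10.1% of all genes. The 45 genes summed to 2506 and 5602 CPM in IL3+ replicates 1 and 2 and to 4236 and 3136 CPM in IL3- replicates 1 and 2. The IL3+ mean therefore rests on libraries that stood on either side of the IL3- pair. Left without IL3+ replicate 1, the median log2 fold change of the 45 was -0.60 with 3 genes above 0, and without IL3+ replicate 2 it was 0.49 with 38 above 0. Without IL3- replicate 1 it was -0.31, and without IL3- replicate 2 it was 0.07.

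**Figure D2:**
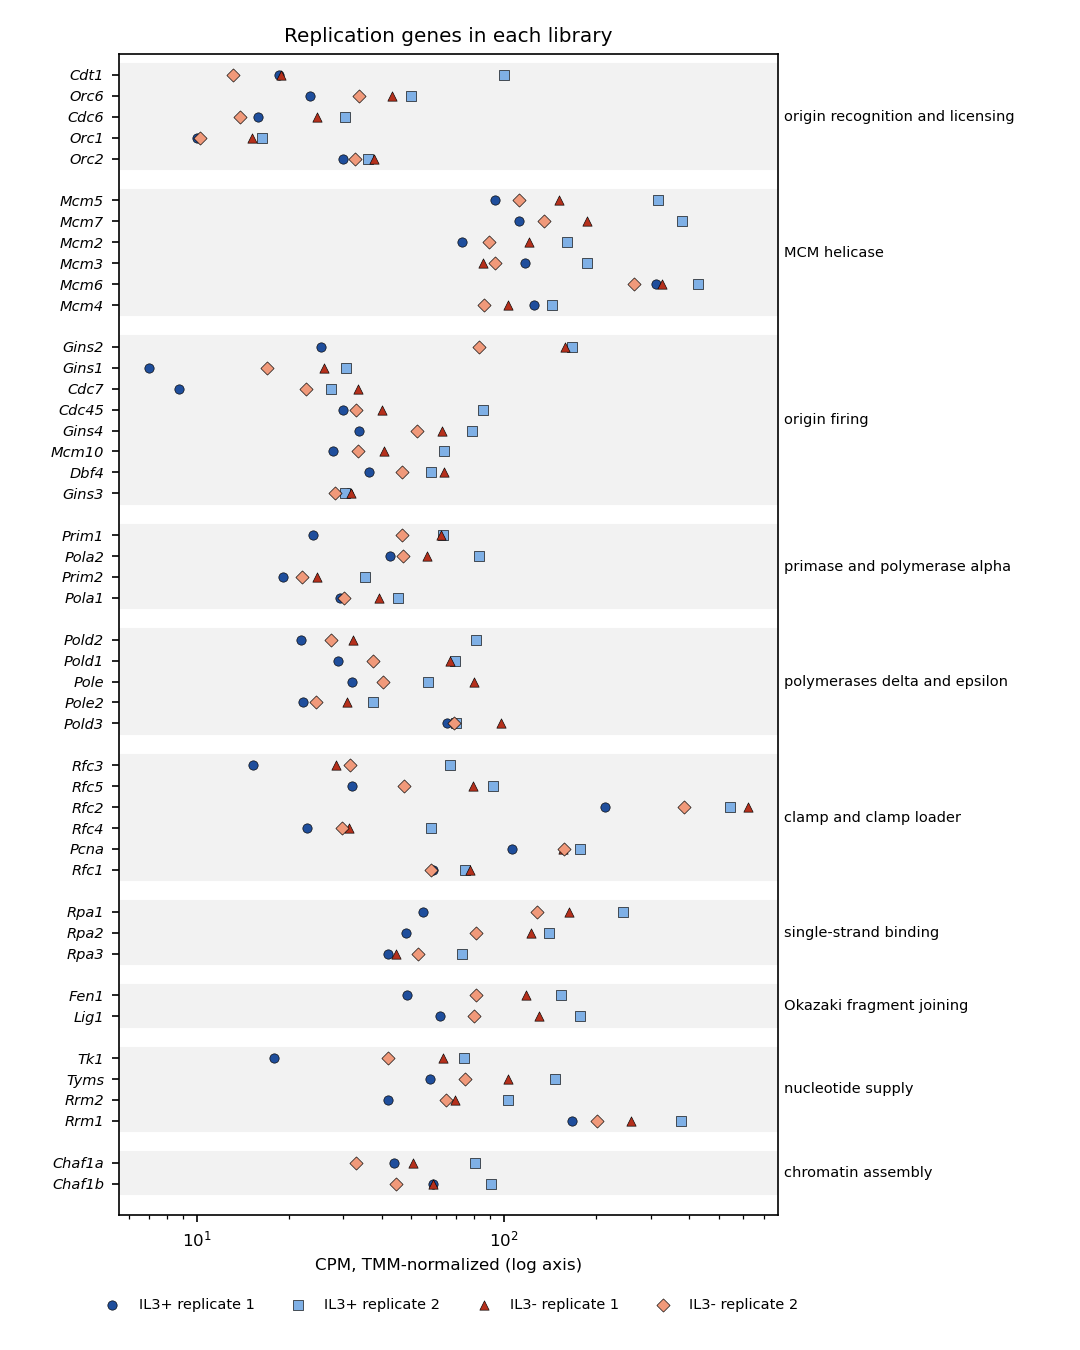
Level of each of the 45 replication genes in each library (x axis, TMM-normalized CPM on a log axis) by role (y axis), 1 symbol per library. IL3+ replicate 2 is the highest library for 37 genes and IL3+ replicate 1 the lowest for 36.

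**Figure D3:**
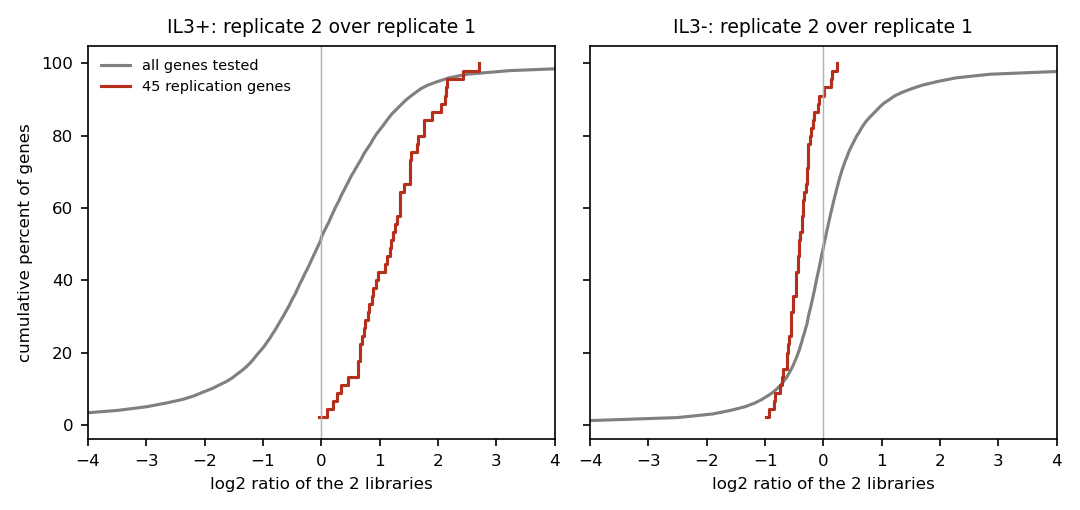
Cumulative percent of genes (y axis) by the log2 ratio of the 2 libraries of a group (x axis), for the 45 replication genes and for all 16535 genes tested. In the IL3+ panel the replication genes sit to the right of all genes, with a median of 1.20, and in the IL3- panel to the left, with a median of -0.41.

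The erythroid markers followed the same library order. Their 4 genes summed to 169.7 and 7044 CPM in IL3+ replicates 1 and 2 and to 3445 and 1666 CPM in IL3- replicates 1 and 2. Hba-a1, an alpha globin gene with a near-identical copy, held most of that sum, at 117.3, 6745, 3316 and 1575 CPM in the same sequence. Klf1, an erythroid transcription factor, stood at 51.9 and 217.5 CPM in the IL3+ libraries and 96.8 and 75.1 CPM in the IL3- libraries. The sum of the pre-B markers had that order too, over a narrow range. It was 19.0 and 26.0 CPM with IL-3 and 20.1 and 19.1 CPM without it. Singly, only 1 of the 6 had the order, Cd79a, at 0.667 and 11.7 CPM with IL-3 and 1.73 and 1.69 CPM without it. Cd79b was instead highest in IL3+ replicate 1, at 16.2 and 11.2 CPM with IL-3 and 14.4 and 15.1 CPM without it. Of the 10 myeloid progenitor markers, 3 had the order singly, Prtn3, Ctsg and Il3ra. The sums of the other lists had other orders. The 10 myeloid progenitor markers summed to 4132 and 2735 CPM with IL-3 and 2112 and 1352 CPM without it, and Kit had at most 4 counts in any library. The 6 mast cell markers summed to 748.4 and 115.5 CPM with IL-3 and 163.9 and 239.6 CPM without it, with Tpsb2 at 0 in all but IL3+ replicate 1. The 8 maturing neutrophil markers were at 805.9 and 296.0 CPM with IL-3 and 945.3 and 5366 CPM without it, with Camp at 0 in IL3+ replicate 2. T cell and fibroblast markers summed to at most 2.52 and 1.42 CPM. The part of these cell type differences in the levels of the replication genes was not tested.

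**Figure D4:**
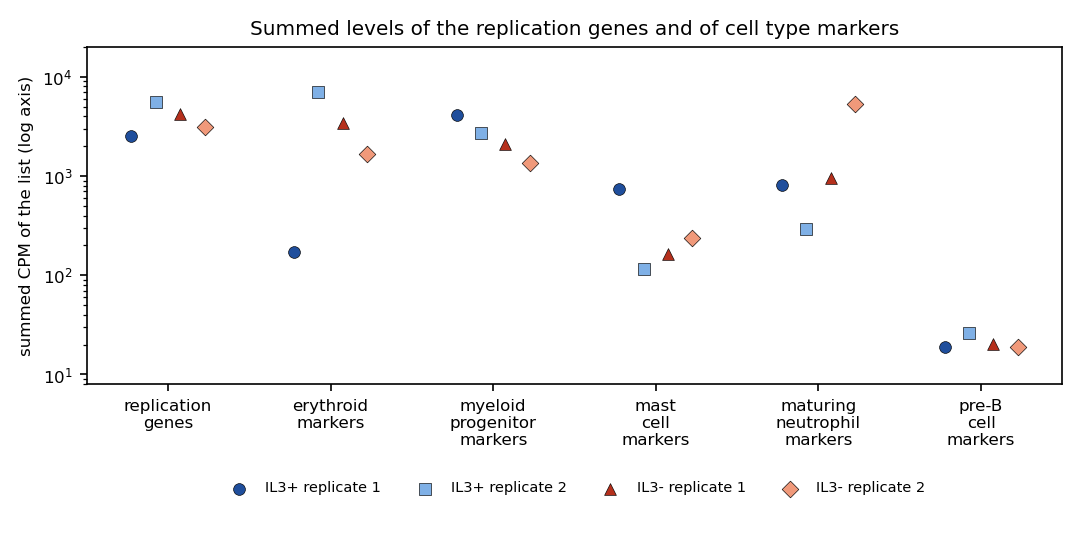
Summed CPM (y axis, log axis) of the 45 replication genes and of 5 lists of cell type markers (x axis), 1 symbol per library. The replication genes and the erythroid markers are both highest in IL3+ replicate 2 (5602 and 7044 CPM) and lowest in IL3+ replicate 1 (2506 and 169.7 CPM).

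Origin recognition and licensing was read from Orc1, Orc2, Orc6, Cdc6 and Cdt1, and none of the 5 passed the test. Cdt1, which brings the MCM ring to the origin, lies at chr8:122568015-122573128 and had the largest log2 fold change of the 45. Its level was 18.5 CPM in IL3+ replicate 1 and 99.8 CPM in IL3+ replicate 2, and 18.9 and 13.1 CPM in the IL3- libraries. A single IL3+ library was high and the other lay inside the IL3- range. The log2 fold change was -1.89 with a SE of 0.84 and an adjusted p of 0.854 by edgeR, and without IL3+ replicate 2 it was -0.21. Orc6, the smallest subunit of the origin recognition complex, stood at 23.3 and 50.0 CPM with IL-3 and 43.2 and 33.8 CPM without it, with a log2 fold change of 0.07 (SE 0.47, adjusted p 0.996 by edgeR). Cdc6, the ATPase that works with the origin complex in loading, was at 15.8 and 30.5 CPM with IL-3 and 24.6 and 13.8 CPM without it. Orc1 and Orc2, both subunits of the origin complex, ran from 9.99 to 16.3 CPM and from 29.9 to 37.7 CPM, so Orc2 varied by only 1.26-fold over the 4 libraries. Of the exon bases of Orc2, 29.8% also lie in exons of Nif3l1 on the other strand.

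The 6 subunits of the MCM2-7 helicase all had lower means in IL3- cells, and their median on the log2 scale was -0.56. None of the 6 passed the test. Without IL3+ replicate 2 the median was 0.21, and Mcm2, Mcm5 and Mcm7 lay above 0, Mcm2 at 0.52. Without IL3- replicate 2 Mcm2 was at 0.05 and the median was -0.39. The median was -0.83 without IL3+ replicate 1 and -0.67 without IL3- replicate 1, each with 0 of the 6 above 0. Mcm3 (chr1:20802968-20820312) stood at 117.4 and 186.2 CPM with IL-3 and 85.4 and 93.6 CPM without it. Mcm4 (chr16:15623897-15637400) stood at 124.9 and 143.3 CPM with IL-3 and 102.8 and 85.9 CPM without it. In both genes the groups did not overlap, although in Mcm3 the gap from the lower IL3+ library to the higher IL3- library was smaller than that between the IL3+ replicates. The log2 fold change was -0.76 for Mcm3 (SE 0.36, adjusted p 0.860) and -0.51 for Mcm4 (SE 0.31, adjusted p 0.892, edgeR).

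Mcm6, whose promoter held 3 of the E2F matches shown above, had the highest mean FPKM of the 45 over the 4 libraries, 62.6, although Rfc2 was higher in both IL3- libraries and Pcna in IL3- replicate 2. Its level was 311.7 and 429.1 CPM with IL-3 and 326.7 and 265.0 CPM without it, and the log2 fold change was -0.32 (SE 0.35, adjusted p 0.942, edgeR). Mcm5 and Mcm7 showed the IL3+ split most clearly among the subunits. Mcm5 was at 93.3 and 316.2 CPM with IL-3 and 150.9 and 111.7 CPM without it, and Mcm7 was at 112.2 and 380.0 CPM with IL-3 and 186.5 and 134.9 CPM without it. Their log2 fold changes were -0.64 (SE 0.63, adjusted p 0.936) and -0.62 (SE 0.64, adjusted p 0.940) by edgeR, and without IL3+ replicate 2 they were 0.49 and 0.52. For both, each IL3- library lay between the IL3+ libraries. Mcm2 had the same order, at 73.1 and 160.1 CPM with IL-3 and 120.7 and 89.4 CPM without it.

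The subunits assemble in equal numbers, and their share of the summed MCM2-7 FPKM (fragments scaled by gene length and library size, as deposited) differed between libraries. That sum was 184.8 and 296.1 FPKM with IL-3 and 186.9 and 163.7 FPKM without it. Mcm6 gave 34.8% of it in IL3+ replicate 1 and 24.9% in IL3+ replicate 2, and 32.0% and 32.1% in the IL3- libraries. The share of Mcm4 was 18.1% and 10.8% in the IL3+ libraries, against 13.1% and 13.5% in the IL3- libraries. Mcm5 went the other way, with 12.2% and 21.4% in the IL3+ libraries and 17.3% and 15.8% in the IL3- libraries, as did Mcm7, with 13.2% and 23.2% and then 19.3% and 17.2%. In these 4 the shares of both IL3- libraries lay between those of the IL3+ replicates. They did not in Mcm2, with 5.47% and 6.22% in the IL3+ and 7.93% and 7.26% in the IL3- libraries, nor in Mcm3, with 16.3% and 13.4% and then 10.4% and 14.1%.

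**Figure D5:**
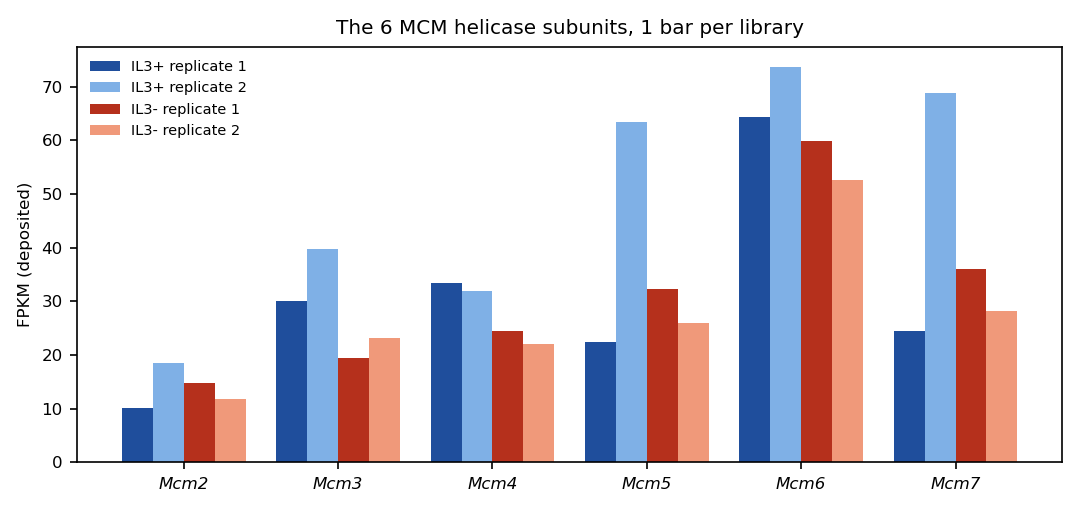
FPKM (y axis) of the 6 MCM2-7 subunits (x axis), 1 bar per library. Mcm6 is highest in every library, and Mcm5 and Mcm7 are more than 2-fold higher in IL3+ replicate 2 than in IL3+ replicate 1.

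Among the 8 genes of origin firing, 5 had a log2 fold change above 0 (48.1% of all genes) and 3 below. None of the 8 passed the test. Gins2, a GINS subunit at chr8:120578633-120589304, had the widest IL3+ split of the 45, at 25.5 and 166.5 CPM, and stood at 157.8 and 83.0 CPM in the IL3- libraries. Its log2 fold change was 0.33 with a SE of 0.91 (adjusted p 0.985, edgeR), and it was -0.47 without IL3+ replicate 1 and 2.24 without IL3+ replicate 2. Of its exon bases, 67.3% also lie in exons of Gse1 on the opposite strand, and the strand setting of the counting was not given in the sources used here. The other GINS subunits did not share one pattern. Gins1 was at 6.98 and 30.6 CPM with IL-3 and 26.0 and 17.0 CPM without it, and Gins4 at 33.6 and 79.0 CPM and then 62.9 and 52.2 CPM, and the log2 fold change was 0.03 (SE 0.49, adjusted p 0.999, edgeR). Gins3, by contrast, held between 28.3 and 31.8 CPM in all 4 libraries, the narrowest range of the 45 at 1.13-fold, and it was the only one of the 45 lower in IL3+ replicate 2 than in replicate 1.

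Cdc45, the partner of MCM and GINS in the active helicase, stood at 29.8 and 85.5 CPM with IL-3 and 40.0 and 32.9 CPM without it. Its log2 fold change was -0.66 (SE 0.57, adjusted p 0.926, edgeR), and 0.29 without IL3+ replicate 2. Cdc7, the catalytic subunit of the firing kinase, had the highest log2 fold change of the 45, at 0.63 with a SE of 0.64 and an adjusted p of 0.938 by edgeR. It was 0.03 without IL3+ replicate 1 and 1.68 without IL3+ replicate 2, where Gins2 exceeded it. Its level was 8.78 and 27.4 CPM with IL-3 and 33.4 and 22.7 CPM without it. Dbf4, the regulatory subunit of that kinase, was at 36.4 and 57.8 CPM with IL-3 and 63.995 and 46.5 CPM without it, so in both subunits 1 IL3- library exceeded and 1 lay between the IL3+ libraries. Mcm10, a firing factor, ran from 27.8 to 63.8 CPM, with its extremes in the IL3+ libraries.

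Primase and polymerase alpha start each new strand. Their 4 genes all had both IL3- libraries between the IL3+ libraries. Prim1, the catalytic primase subunit, was at 23.8 and 63.5 CPM with IL-3 and 62.4 and 46.6 CPM without it. Its log2 fold change was 0.32 (SE 0.55, adjusted p 0.973, edgeR), or -0.22 without IL3+ replicate 1. Pola2, the accessory subunit of polymerase alpha, ran from 42.5 to 83.1 CPM. Prim2, the large primase subunit, ran from 19.1 to 35.4 CPM, and Pola1, the catalytic subunit of polymerase alpha whose promoter is shown above, from 29.4 to 45.3 CPM.

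Of the leading and lagging strand polymerases, Pold2, an accessory subunit of polymerase delta, departed most from 0. It was at 21.9 and 81.4 CPM with IL-3 and 32.2 and 27.4 CPM without it, and the log2 fold change was -0.80 (SE 0.66, adjusted p 0.922, edgeR), and 0.44 without IL3+ replicate 2. Pole, the catalytic subunit of polymerase epsilon, had the widest gap between the IL3- libraries, at 80.2 and 40.3 CPM against 31.9 and 56.4 CPM with IL-3. Pold1, the catalytic subunit of polymerase delta, stood at 28.8 and 69.2 CPM with IL-3 and 66.9 and 37.4 CPM without it. Pold3, an accessory subunit of delta, ran from 65.4 to 98.1 CPM with its IL3+ libraries close together, and Pole2, an accessory subunit of epsilon, from 22.2 to 37.4 CPM.

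Pcna, the sliding clamp, was at 106.6 and 176.5 CPM with IL-3 and 155.6 and 156.4 CPM without it, so its IL3- libraries were nearly equal and lay within the IL3+ range. The 5 subunits of replication factor C, which loads the clamp, differed among themselves. Rfc2 was at 213.9 and 545.0 CPM with IL-3 and 621.4 and 385.4 CPM without it, and the log2 fold change was 0.41 (SE 0.56, adjusted p 0.966, edgeR), and -0.11 without IL3+ replicate 1. Rfc3, with an E2F match in its promoter, was at 15.2 and 66.7 CPM with IL-3 and 28.5 and 31.5 CPM without it, and the log2 fold change was -0.45 (SE 0.72, adjusted p 0.973, edgeR), and 0.98 without IL3+ replicate 2. Rfc4 and Rfc5 ran from 22.9 to 58.0 CPM and from 32.1 to 92.4 CPM, each lowest in IL3+ replicate 1 and highest in IL3+ replicate 2. Rfc1, the large subunit, varied by 1.33-fold, from 58.1 to 77.4 CPM. Exons of Rfc2, Rfc4 and Rfc5 share 15.1%, 12.7% and 10.7% of their bases with Lat2, Eif4a2 and Wsb2 on the opposite strand.

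Replication protein A coats single-stranded DNA, and its 3 genes all had both IL3- libraries between the IL3+ libraries. Rpa1, the large subunit, showed the widest split, at 54.7 and 244.6 CPM with IL-3 and 163.0 and 128.5 CPM without it. Rpa2, the middle subunit, ran from 47.8 to 139.8 CPM. Rpa3, the small subunit, was at 41.9 and 73.2 CPM with IL-3 and 44.5 and 52.4 CPM without it. Its log2 fold change was -0.25 (SE 0.40, adjusted p 0.973, edgeR), or 0.21 without IL3+ replicate 2.

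Fen1, the flap nuclease that trims Okazaki fragments, and Lig1, the ligase that seals them, had the same library order as most of the set. Fen1 was at 48.2 and 153.1 CPM with IL-3 and 118.4 and 81.0 CPM without it, and the log2 fold change was -0.01 (SE 0.62, adjusted p 0.999, edgeR), a sign that turned with library size scaling. Of its exon bases, 78.8% also lie in Gm10143 on the opposite strand. Lig1 was at 61.8 and 177.0 CPM with IL-3 and 130.5 and 79.9 CPM without it, and the log2 fold change was -0.18 (SE 0.60, adjusted p 0.989, edgeR), and 0.77 without IL3+ replicate 2.

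The 4 genes of nucleotide supply also had both IL3- libraries between the IL3+ libraries. Rrm1, the large subunit of ribonucleotide reductase, was at 167.0 and 376.5 CPM with IL-3 and 258.7 and 201.2 CPM without it, and the log2 fold change was -0.24 (SE 0.49, adjusted p 0.980, edgeR). Rrm2, its small subunit, was at 42.0 and 102.9 CPM with IL-3 and 69.3 and 65.0 CPM without it, and the log2 fold change was -0.11 (SE 0.50, adjusted p 0.993, edgeR). Without IL3+ replicate 2 these were 0.46 and 0.68. Tyms, thymidylate synthase, ran from 57.5 to 146.3 CPM and Tk1, the S-phase thymidine kinase, from 17.8 to 74.3 CPM.

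Chaf1a and Chaf1b, subunits of the assembly factor that places histones on new DNA, were lowest in IL3- replicate 2, unlike most of the set. Chaf1a was at 43.9 and 80.4 CPM with IL-3 and 50.8 and 33.0 CPM without it, and the log2 fold change was -0.57 (SE 0.45, adjusted p 0.919, edgeR). Chaf1b was at 58.7 and 90.8 CPM with IL-3 and 58.8 and 44.5 CPM without it, and the log2 fold change was -0.53 (SE 0.38, adjusted p 0.901, edgeR). Without IL3+ replicate 2 these were -0.07 and -0.19, and without IL3+ replicate 1 they were -0.94 and -0.81. The groups overlapped in both genes, and 52.5% of the Chaf1a exon bases also lie in Ubxn6 on the opposite strand.

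A further 40 replication genes, chosen by function, showed the library split to a lesser degree. None passed the adjusted test, and 1 had an unadjusted p under 0.05 by edgeR (5.91% of all genes). The log2 fold change was above 0 in 19 (48.1% of all genes) and below in 21, with a median of -0.02. IL3+ replicate 2 was above replicate 1 in 28 of the 40 (70%, against 48.2% of all genes), with a median log2 ratio of 0.38 against -0.04. The groups did not overlap in 9 of them, 5 higher in IL3- cells (19.4% of all genes) and 4 lower (17.9% of all genes). One of the 4, Chtf8, had 74 counts in IL3- replicate 1 and 6791 in IL3- replicate 2, and its exons are shared in full with another entry of that symbol. Dnmt1, the maintenance DNA methyltransferase that works at the fork, was the one with the unadjusted p, at 149.4 and 147.8 CPM with IL-3 and 70.4 and 67.2 CPM without it. Its replicates were close in both groups, and its log2 fold change was -1.11 with a SE of 0.30 (adjusted p 0.727, edgeR). With the replicate number as a block its unadjusted p was 0.0748, and 0 of the 40 were under 0.05. Mcm8, an MCM relative outside the MCM2-7 ring, was at 11.5 and 10.02 CPM with IL-3 and 18.7 and 15.9 CPM without it, and the log2 fold change was 0.69 (SE 0.38, adjusted p 0.874, edgeR). Dna2, a nuclease and helicase of Okazaki fragment processing, was at 50.1 and 32.4 CPM with IL-3 and 76.4 and 53.4 CPM without it, and the log2 fold change was 0.66 (SE 0.39, adjusted p 0.888, edgeR).

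Of 19 E2F and RB regulators and proliferation genes, none passed the adjusted test or had an unadjusted p under 0.05 (5.91% of all genes by edgeR). The log2 fold change was above 0 in 6 (48.1% of all genes) and below in 13. E2f6, a repressive E2F, was at 26.4 and 5.66 CPM with IL-3 and 6.10 and 10.4 CPM without it, and the log2 fold change was -0.96 (SE 0.82, adjusted p 0.924, edgeR), and it was 0.54 without IL3+ replicate 1. Tfdp1, the dimerization partner of E2F factors, was at 147.3 and 78.4 CPM with IL-3 and 56.2 and 96.8 CPM without it (log2 fold change -0.56, SE 0.48, adjusted p 0.925, edgeR), and its log2 fold change was -0.04 without IL3+ replicate 1 and -0.22 without IL3- replicate 1. These 2 genes were high in IL3+ replicate 1, the library in which the replication genes were low. Of the 19, 6 were higher in IL3+ replicate 1 and 13 in IL3+ replicate 2 (48.2% of all genes). Among the 6 were Rb1 and Rbl2 of the RB family, named after their values were seen. Rb1 was at 112.3 and 54.1 CPM with IL-3 and 59.6 and 75.3 CPM without it. Rbl2 was at 121.1 and 55.2 CPM with IL-3 and 63.9 and 82.6 CPM without it. Rbl1, also of that family, was among the 13, at 29.2 and 33.4 CPM with IL-3. So was E2f1, an activating E2F, at 17.2 and 37.5 CPM with IL-3 and 31.0 and 23.0 CPM without it. It had the order of most replication genes, as did 6 of the 19 and 10.1% of all genes, and was named after its values were seen. Mybl2, an E2F target that encodes a transcription factor of the cell cycle, was at 46.5 and 118.8 CPM with IL-3 and 63.8 and 46.4 CPM without it (log2 fold change -0.58, SE 0.53, adjusted p 0.933, edgeR), and 0.25 without IL3+ replicate 2. Mki67, the gene of a proliferation marker, was named after its values were seen, and stood at 215.1 and 511.0 CPM with IL-3 and 558.6 and 385.9 CPM without it.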

How the data were processed

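Total RNA from 32D cells was depleted of ribosomal RNA and sequenced on an Illumina HiSeq. The study's methods name Rsubread alignment and featureCounts on GRCm38, whereas the submitters' processing notes name STAR, Cuffdiff and mm10, without versions; the strand setting was not given in the sources used here. The authors deposited raw counts per gene and FPKM values, both for 4 libraries. The tool behind the FPKM values was not given in the sources used here. Among counts of 1 to 20, 57.7 to 59.9% were even, so a fragment may have been counted more than once, which was not tested.

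Counts were analysed as deposited with edgeR 4.0.16 in R 4.3.3, with filterByExpr (16535 of 23756 genes, all 45 replication genes), TMM normalization, the quasi-likelihood test of IL3- against IL3+, two-sided, and Benjamini-Hochberg adjustment over all genes tested at 0.05. Standard errors were derived from the F statistic. The lowest count of a replication gene was 450. The 45 genes and the lists were chosen with earlier results of these data known, so no set test was run and counts are given beside those of all genes. Full values are given for the member of each role group with the largest absolute log2 fold change and the one with the highest mean FPKM, and for up to 3 genes of each other list with the lowest p. Cdc7, Gins2, Mcm4, Mcm5 and Mcm7 were added after their values were seen. Alternatives were DESeq2 1.42.0, library size scaling, no filter, a minimum of 10 counts in every library, a replicate block, limma 3.58.1 on log2(FPKM + 1) and log2(FPKM + 0.1), and leaving out each library. The scripts were tested on simulated data.

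The labels call the libraries biological duplicates, and p-values measure the spread between them, with a common biological coefficient of variation of 0.540. An exact permutation test of 2 against 2 cannot go below 0.333 and was not used. Gene coordinates are those of the deposited table. Exon overlaps were taken from GENCODE M21 on GRCm38 and promoters from RefSeq, GRCm38.p6. Values of single genes among the cell type markers are given for some of them only, and the others are not reported here.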

Additional observations from a re-analysis of the deposited data

How the results depend on the processing

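The count of 0 replication genes called held under each alternative with an adjusted test. In edgeR refits on 3 libraries, where the lone library of a group is assumed to vary like the other group, 10 of the 45 (22.2%) had an unadjusted p under 0.05 without IL3+ replicate 1, against 14.99% of all genes, and 10 without IL3+ replicate 2, against 16.86%. None did without either IL3- library. Over all genes, DESeq2 called 271, and refits without 1 library called 0 to 22, the highest without IL3- replicate 1, with 1 called without IL3- replicate 2. In the replicate block fit 0 genes were called and 548 had an unadjusted p under 0.05. Deviations of same-numbered libraries correlated at -0.18. With 2 libraries per group this cannot tell whether the numbers pair the samples, and no source ties them to a shared clone or day. With crossed pairs, chosen after seeing the data, 0 genes were called by edgeR. In that fit 1136 genes had an unadjusted p under 0.05, 6.87% of those tested, among them 1 replication gene, Cdt1. The median log2 fold change of the other 40 replication genes ran from -0.30 to 0.34 when each library was left out.

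Fold changes with a library left out used the spread of all 4 libraries and have no test. Over the 4 such fits the log2 fold change ran from -0.47 to 2.24 for Gins2, from -1.27 to 0.49 for Mcm5, from -1.24 to 0.52 for Mcm7 and from -1.23 to 0.29 for Cdc45. It ran from -0.62 to 1.05 for Fen1, from -0.46 to 0.77 for Gins4, from -0.75 to 0.77 for Lig1, from -0.38 to 0.72 for Orc6 and from -1.45 to 0.44 for Pold2. The range was -0.22 to 1.19 for Prim1, -0.11 to 1.23 for Rfc2, -1.15 to 0.98 for Rfc3, -0.60 to 0.21 for Rpa3, -0.71 to 0.46 for Rrm1 and -0.62 to 0.68 for Rrm2. Without a turn, it ran from 0.03 to 1.68 for Cdc7, from -2.64 to -0.21 for Cdt1, from -0.94 to -0.07 for Chaf1a, from -0.81 to -0.19 for Chaf1b, from -0.54 to -0.08 for Mcm6, from -1.01 to -0.04 for Tfdp1 and from 0.37 to 1.003 for Dna2. The log2 fold change also kept its sign for Mcm3 (-1.06 to -0.39), Mcm4 (-0.64 to -0.38), Dnmt1 (-1.15 to -1.08) and Mcm8 (0.56 to 0.80). For E2f6 it was -1.68 to 0.54 and for Mybl2 -1.11 to 0.25. The estimate of Fen1 was 0.080 with library size scaling, 0.19 with the replicate block, 0.19 with crossed pairs, and 0.20 and 0.21 in limma. The estimate of Rrm2 was 0.029 with the block, 0.029 with crossed pairs, and 0.042 and 0.047 in limma. The cause of these turns was not tested. Each replication gene had 450 or more counts in every library.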
